A study of Drosophila melanogaster with 12 samples.

Results

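The serine 2 phosphorylated (S2) form of RNA Polymerase II (Pol II), in which the C-terminal domain of the largest subunit carries the phosphate, was mapped by ChIP-seq in mock-treated Kc167 cells, a Drosophila melanogaster line with hemocyte features, and the called regions of both mock libraries are described here as the baseline of the line. Mock cells went through nucleofection with no dsRNA or siRNA and were collected 3 days later. They are 2 of the 12 samples of a series that also holds S2 IPs of cells depleted of AGO2 or LaminB and 6 inputs, none of which is described here. The labels name both mock libraries as replicates and do not say whether they came from separate cultures. Mock replicate 1 held 7795 called regions and mock replicate 2 held 7957, out of 40839 regions in all 6 IP lists. A region touched the body of 7174 of 13968 annotated protein-coding genes in both replicates, and these genes are the subject of the report. With 1 group of 2 libraries there was no contrast to test, so counts and levels of both replicates are given as a description, with no p-value.

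Pol II starts transcription at the promoter, pauses a short way downstream in many Drosophila genes, and is released into the gene body when the kinase Cdk9 phosphorylates pausing factors and serine 2 of the C-terminal repeats. S2 phosphorylation rises as the polymerase moves into the body and is widely used as a mark of productive elongation. Kc167 descends from embryonic cells and carries features of hemocytes, the blood cells of the fly, which engulf debris, secrete basement membrane and respond to infection.

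In mock replicate 1 the regions covered 13.0 Mb with a median width of 906 bp and a longest region of 24805 bp, and in mock replicate 2 they covered 12.7 Mb with a median width of 862 bp and a longest region of 18344 bp. Both replicates shared 11.4 Mb, which was 8.27% of the chromosome arms and 0.791 of the bases in either list (Jaccard index). Of the regions, 89.7% in replicate 1 and 90.7% in replicate 2 touched a region of the other replicate. The 801 and 741 regions that did not were narrow, with median widths of 252 and 293 bp. Bases inside annotated genes made up 91.2% and 91.9% of the covered length. The lists hold no read counts, so depth was unknown, and a gene without a region is one where no region was called, not one shown to lack Pol II.

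A gene was counted as covered when a region overlapped at least 1 base between its annotated start and end in both replicates. By this rule 51.4% of protein-coding genes were covered, 46% (6428 genes) had no region in either replicate, and only 366 genes (2.62%) had a region in 1 replicate alone, 216 in replicate 1 and 150 in replicate 2. These 366 genes were thinly covered where they had a region, with median shares of the body of 8.22% and 10.3%. Among the 7174 covered genes the share of the body inside regions had a median of 51.3% in replicate 1 and 52.6% in replicate 2 and correlated across genes with r = 0.941 and rho = 0.946 (n = 7174 genes, which are not independent replicates). The median absolute difference between replicates was 1.59 percentage points, while 533 genes (7.43%) differed by more than 25 points. Where genes overlap, a region cannot be assigned to either of them, and 6433 of the 7174 genes (89.7%) were covered in both replicates on bases that belong to no other gene. Of the 7361 genes that overlap no other gene, 3181 (43.2%) were covered in both replicates and 4009 in neither.

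Genes with a descriptive symbol were covered more often than genes known only by a CG number. Of 7864 genes with another symbol 4888 (62.2%) were covered, and of 6104 genes with only a CG number 2286 (37.5%) were.

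Promoters of the covered and the empty genes differed in their sequence words. The DNA replication-related element (DRE), the palindrome TATCGATA bound by the factor DREF at many promoters of growth and replication genes, lay within 250 bp before to 50 bp after the annotated start of 1307 genes, which was 9.36% of all promoters. The start of 1076 of these 1307 genes (82.3%) was covered in both replicates, against 6385 of 13968 genes overall (45.7%), where a covered start means at least 1 base of the first 500 bp. Of promoters with a covered start 16.9% held the element, and of promoters of genes with no region 2.36%. The TATA box, searched as TATAAA on both strands of the same window, showed no such contrast, with 45.5% of promoters with a covered start, 47.1% of promoters of empty genes and 45.8% of all promoters. The position of the word mattered to the count. A TATAAA on the sense strand that began 45 to 20 bp before the annotated start, a restriction chosen after the data were seen, was found in 1230 promoters, and 191 of these genes (15.5%) had a covered start while 976 (79.3%) had no region in either replicate. The placed TATA box stood in 2.99% of promoters with a covered start, in 15.2% of those of empty genes and in 8.81% of all promoters.

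Both words were also counted apart from repeated sequence and by gene length. Among genes in which at least 50% of all 50-base words occur once in the genome, a covered start was found in 84.2% of 1275 genes with a DRE against 42.9% of those without, and in 16.8% of 1121 genes with a placed TATA box against 49.5% of those without. In genes under 1 kb the placed TATA box went with a covered start in 7.64% of genes against 30.3% without it, and in genes of 5 kb or more in 32.2% against 54.0%. For the DRE the corresponding values were 75.4% against 23.1% in genes under 1 kb and 85.3% against 50.1% in genes of 5 kb or more. The pentamer GAGAG, a core of the sites bound by GAGA factor, stood in 26.7% of promoters with a covered start, in 31.7% of those of empty genes and in 29.7% of all promoters. Matches of different words were allowed to overlap, and a match is a word in a window and not a mapped binding site.

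**Figure D1:**
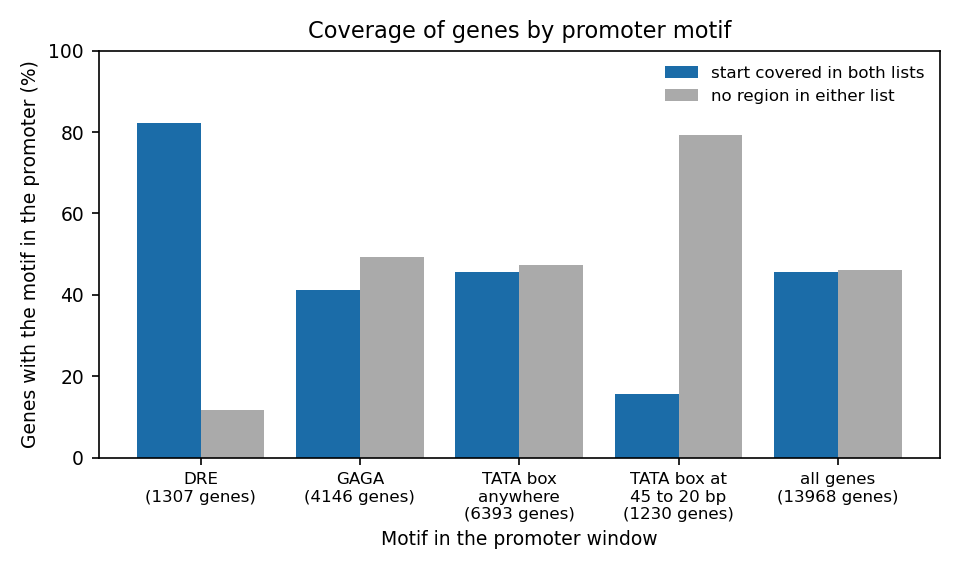
Share of genes with a covered start in both mock replicates (blue) and with no region in either (grey), for genes whose promoter window holds each word and for all 13968 genes (vertical axis in percent, starting at 0). Genes with a DRE stand at 82.3% covered, genes with a TATA box starting 45 to 20 bp before the gene start at 15.5%, and the other words lie close to the 45.7% of all genes.

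The 150 bases just before the annotated start are shown for 7 genes of these classes, 4 covered over the whole body in both replicates whose upstream sequence carries a DRE, 2 empty genes with a placed TATA box and 1 fully covered gene with a placed TATA box. The genes were picked after the data were seen as examples of the classes. RpS12 codes for a ribosomal protein of the small subunit (chr3L:13023202-13023351, plus strand), Cdk2 for a cyclin-dependent kinase of the cell cycle (chr3R:20735473-20735622, plus strand), Prosbeta6 for a catalytic-core subunit of the proteasome (chr3L:16610419-16610568, minus strand) and CCT2 for a subunit of the cytosolic chaperonin (chrX:9089363-9089512, plus strand). Osi18 belongs to the Osiris family of cuticle-related genes (chr3R:6330098-6330247, plus strand), Lsp1gamma codes for a larval serum storage protein (chr3L:66280-66429, plus strand) and Hsp68 for a heat-inducible chaperone of the Hsp70 family (chr3R:24057311-24057460, minus strand). Coordinates are dm6, the sequence is read 5′ to 3′ on the strand of the gene from the RefSeq genome, and capitals mark the DRE in the first 4 and the TATA box in the last 3.
RpS12: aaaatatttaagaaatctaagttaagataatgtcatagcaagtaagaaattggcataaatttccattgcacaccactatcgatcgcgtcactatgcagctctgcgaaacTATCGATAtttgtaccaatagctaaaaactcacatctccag
Cdk2: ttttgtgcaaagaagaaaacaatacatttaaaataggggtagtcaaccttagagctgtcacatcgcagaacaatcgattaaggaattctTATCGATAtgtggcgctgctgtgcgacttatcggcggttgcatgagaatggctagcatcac
Prosbeta6: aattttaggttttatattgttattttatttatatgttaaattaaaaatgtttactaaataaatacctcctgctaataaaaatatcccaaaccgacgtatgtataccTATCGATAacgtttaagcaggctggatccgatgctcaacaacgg
CCT2: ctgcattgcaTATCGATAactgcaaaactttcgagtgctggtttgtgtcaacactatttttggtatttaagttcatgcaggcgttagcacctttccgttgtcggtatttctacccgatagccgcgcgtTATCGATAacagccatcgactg
Osi18: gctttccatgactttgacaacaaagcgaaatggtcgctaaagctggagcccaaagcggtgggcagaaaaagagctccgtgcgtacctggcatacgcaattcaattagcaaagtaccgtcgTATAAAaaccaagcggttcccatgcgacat
Lsp1gamma: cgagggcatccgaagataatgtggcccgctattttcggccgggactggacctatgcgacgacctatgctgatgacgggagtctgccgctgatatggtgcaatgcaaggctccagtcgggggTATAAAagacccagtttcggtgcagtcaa
Hsp68: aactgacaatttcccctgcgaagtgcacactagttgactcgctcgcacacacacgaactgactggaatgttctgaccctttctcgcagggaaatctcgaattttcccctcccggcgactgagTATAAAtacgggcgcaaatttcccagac

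In the RpS12 promoter the DRE began 41 bp before the start, in Cdk2 61 bp and in Prosbeta6 44 bp, and CCT2 carried a pair, at 140 and 22 bp. The TATA box of Osi18 began 30 bp before the start, that of Lsp1gamma 29 bp and that of Hsp68 28 bp. RpS12, Cdk2, Prosbeta6, CCT2 and Hsp68 were covered over 100% of the body in both replicates, while Osi18 and Lsp1gamma had 0% in both. Hsp68 and the empty pair thus share a word at nearly the same distance from the start.

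The position of the regions was read in the 7436 genes of 2 kb or more, in which the first and last 500 bp do not meet. A covered start in both replicates was found in 4054 of them (54.5%), a covered end in 1796 (24.2%), and coverage of at least 95% of the body in 481 (6.47%). Of the 4054 genes with a covered start 1524 (37.6%) had a covered end as well, and 2194 (54.1%) had no covered end in either replicate. The reverse was rare. A covered end with no covered start was seen in 237 of the 4662 covered genes of 2 kb or more (5.08%), and among covered genes that overlap no other gene in 70 of 2070 (3.38%). A further 265 covered genes (5.68%) had neither a start nor an end covered, only internal regions. In 2343 of the 4662 covered genes (50.3%) at least 25% of the body was covered in both replicates, in 1509 at least 50%, in 880 at least 75%, and in 1174 less than 10%.

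The average profile over genes that overlap no other gene and have a covered start fell steeply over the first 2 kb and changed less from there to 5 kb. In 813 such genes of 5 kb or more with a covered start, the mean share of bases covered was read by distance from the start. Around 50 bp it was 95.5% and 94.05% in replicates 1 and 2, and around 450 bp 64.6% and 65.7%. Around 950 bp it was 39.8% and 40.2%, and around 1950 bp 24.5% and 23.9%. At 4950 bp the values were 21.0% and 19.0%. Both replicates followed the same course. From 1950 to 4950 bp, the last distance read, values lay between 19.3% and 24.5% in replicate 1 and between 18.3% and 23.9% in replicate 2. These genes were chosen for a covered start, so a high value there and part of the fall follow from the choice. Over all 3669 genes of 2 kb or more that overlap no other gene, 45.4% and 44.3% of bases were covered on average in the first of 20 bins along the body. In the last bin it was 16.8% and 14.6%.

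**Figure D2:**
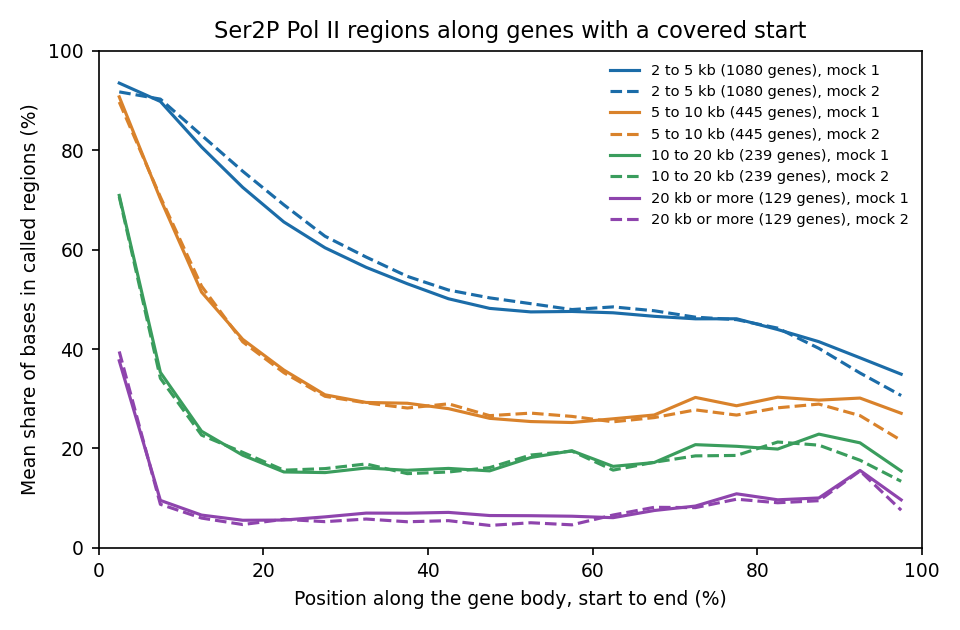
Mean share of bases inside called regions (vertical axis, percent) along the gene from start to end (horizontal axis, percent of the body in 20 bins), for genes that overlap no other gene and have a covered start, by length class, with solid lines for mock replicate 1 and dashed lines for mock replicate 2. The first bin stands at 93.5% and 91.7% in genes of 2 to 5 kb and at 37.6% and 39.5% in genes of 20 kb or more, and the last bin at 34.9% and 30.6% and at 9.65% and 7.57%.

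From 2 kb upwards long genes were covered about as often as shorter ones, and over a much smaller part of the body. A region in both replicates was found in 24.7% of genes under 1 kb, 48.1% of genes of 1 to 2 kb, 61.3% of genes of 2 to 5 kb, 67.4% of genes of 5 to 10 kb, 63.0% of genes of 10 to 20 kb, 57.6% of genes of 20 to 50 kb and 67.7% of genes of 50 kb or more. Among covered genes the median share of the body fell from 53.2% and 55.3% at 2 to 5 kb to 10.7% and 10.7% at 10 to 20 kb and 0.991% and 0.966% at 50 kb or more. Gene length enters both sets of values, since a longer body offers more bases for a region to touch and a region of a given width is a smaller share of it.

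**Figure D3:**
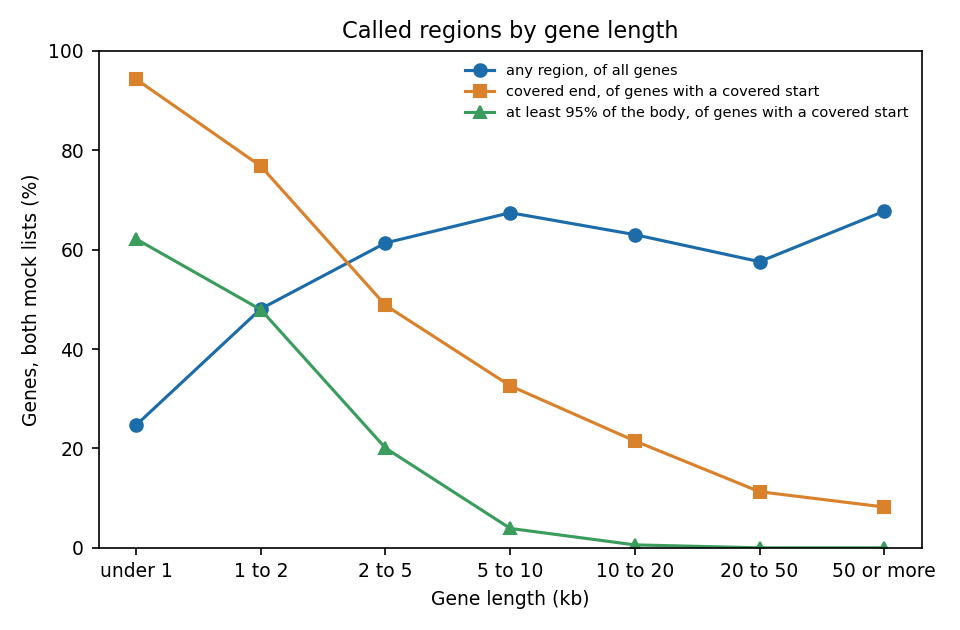
Share of genes with any region in both mock replicates (circles), share of genes with a covered start that also have a covered end (squares) and share of them covered over at least 95% of the body (triangles), by gene length in kb (vertical axis in percent, starting at 0). The covered end falls from 94.3% of genes under 1 kb, in which start and end windows overlap, to 8.21% of genes of 50 kb or more, while the share with any region stays between 57.6% and 67.7% from 2 kb upwards.

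How far a region ran from the start was measured as the distance from the gene start to the downstream edge of the region over the first 500 bp, cut at the gene end, and the smaller value of both replicates was kept. This reach had a median of 1.04 kb in genes of 2 to 5 kb with a covered start, of 0.802 kb at 5 to 10 kb, of 0.585 kb at 10 to 20 kb, of 0.326 kb at 20 to 50 kb and of 0.243 kb at 50 kb or more. It therefore fell in absolute length as well as in share of the body. Of 5738 genes of at least 1 kb with a covered start 2893 (50.4%) had a reach of 1 kb or more. A reach of 2 kb or more was found in 972 of 4054 genes (24.0%), of 5 kb or more in 64 of 1847 (3.47%) and of 10 kb or more in 4 of 951 (0.421%), and no gene reached 15 kb. No 2 regions of a list lay closer than 589 bp, so the caller had already joined nearby regions, and a reach ends at a gap of at least that length.

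The longest uninterrupted reaches belonged to genes of varied function. spin, which codes for the lysosomal transporter Spinster, was covered from start to end over 13.3 kb in both replicates (2R). Cubn, which codes for the endocytic receptor cubilin, followed with 12.6 kb on X, FASN1, the fatty acid synthase, with 11.6 kb on 2L, and Lk6, a kinase of the translation factor eIF4E, with 12.8 and 11.6 kb of its 13.5 kb on 3R. The other members of the longest 10 were Nup358 (9.325 kb), a large nucleoporin of the cytoplasmic face of the pore, nsl1 (8.32 kb), a subunit of the NSL histone acetylation complex, Pdk (8.20 kb), the pyruvate dehydrogenase kinase, Chd64 (8.10 kb), a calponin-like actin-binding protein, Vha16-1 (7.85 kb), the proton channel ring of the vacuolar ATPase, and NAT1 (7.74 kb), a relative of eIF4G. All 10 overlap no other gene, and 9 of them were covered over 100% of the body in both replicates, Lk6 being the exception at 94.4% and 85.5%.

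Long genes could still be covered over a large part without one unbroken region. pnt, the ETS factor at the end of Ras signalling (chr3R:23290231-23346167), was covered over 62.2% and 55.7% of its 55.9 kb with both its start and its end covered, although the region at its annotated start reached 1.42 and 2.45 kb. kuz, the metalloprotease that cleaves Notch (chr2L:13550139-13639411), was covered over 36.7% and 24.0% of 89.3 kb. sty, the Ras pathway inhibitor Sprouty, had no covered base in its first 500 bp and a covered transcript start 6.97 kb further on, from which 100% and 96.2% of the rest of the gene was covered. The widest regions of the lists included a single stretch over sty of 19843 bp in replicate 1 and 16934 bp in replicate 2.

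In many covered genes without a covered start, a region lay near an annotated transcript start. Of 175 covered genes of 20 kb or more without a start covered in both replicates 109 (62.3%) had a region within 250 bp of an annotated transcript start in both. In genes of 2 to 5 kb it was 68 of 212 (32.1%). The 250 bp were read on both sides of each start, the start of the gene itself included, so these are not counts of other starts alone. Traf4, a signalling adaptor, had its first covered transcript start 10.1 kb into the gene and vri, the circadian repressor Vrille, 16.7 kb in. Among genes of the ecdysone response, Eip75B and br, which code for a nuclear receptor and a zinc-finger factor, had theirs 38.7 and 37.2 kb in. From these covered starts to the gene end, 11.7% and 6.27% of Traf4 was covered and 9.40% and 11.7% of vri. For Eip75B it was 3.69% and 3.83% and for br 3.00% and 5.44%. Which start the polymerase used was not tested, so a distance from the annotated gene start may not be the distance from the start in use.

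Exons were covered more than introns beyond the first 2 kb. In the 813 genes of 5 kb or more with a covered start that overlap no other gene, 24.4% and 24.2% of exon bases and 8.67% and 7.51% of intron bases past 2 kb were covered. The comparison was repeated within genes, so that genes with long introns did not set it. In 390 genes with at least 500 bases of both kinds past 2 kb and some coverage there, the exon share was the higher one in both replicates in 249 (63.8%) and the intron share in 84 (21.5%), with medians of 29.2% and 27.99% for exons and 11.9% and 10.0% for introns. Base composition and mappability of exons and introns were not part of this comparison, and their part in it was not tested.

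Past the annotated end the regions thinned out. In genes of 2 kb or more with a covered end and no other gene within 2 kb downstream, 20 of 70 had covered sequence 500 to 1000 bp past the end in both replicates. Among such genes covered over at least 95% of the body it was 8 of 21, and among genes with a covered start and no covered end 23 of 280 (8.21%). Averaged over the 70 genes, 85.2% and 78.7% of bases were covered around 550 bp before the end and 63.8% and 54.7% around 50 bp before it. Past the end it was 33.2% and 29.1% of bases around 450 bp and 17.1% and 15.7% around 950 bp. The 70 genes were chosen for a covered end, so high values just before it and part of the fall follow from the choice.

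Genes of the ribosomes and of the chaperonin CCT were covered in nearly every member, many of them over the whole body. Of 86 genes of cytoplasmic ribosomal proteins 82 were covered in both replicates (95.3%, against 51.4% of all genes), and 74 were covered over at least 95% of the body (86.0%, against 12.1% of all genes). The median share of the body was 100% in both replicates, and the longest fully covered member was RpL3 (3.28 kb). The 4 empty members, RpL10Aa, RpS10a, RpS19b and RpS5b, are second copies of ribosomal protein genes, of which RpS5b and RpS19b are known from the germ line. RpS3A on chromosome 4 had the lowest share among covered members, 62.1% and 62.9%. Mitochondrial ribosomal proteins were covered in 72 of 73 members, 48 of them over at least 95% of the body. With a median length of 909 bp they are short genes, and 62.1% of all genes under 1 kb with a covered start were covered to that extent. The member with the lowest share, mRpS9, is 13.4 kb long and had 4.48% and 3.89%, and a mean of 2.502% at a −log10 q of at least 2. All 8 genes of the chaperonin CCT, which folds actin and tubulin, were covered over at least 95% of the body, CCT7 over 4.67 kb being the longest.

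In the proteasome and the respiratory chain, coverage separated the main subunit genes from their named relatives. Of 32 proteasome genes without a T or R at the end of the symbol 31 were covered in both replicates and 30 of them over at least 95% of the body. Of the 16 genes with such an ending, many of which are known as testis-specific copies, 15 were empty and Rpt3R had 27.7% and 1.69%. The empty main gene was Prosalpha1, in which 0% of 50-base words occur once in the genome, so that reads from it could not be placed. Among the empty relatives, Prosalpha1R also has fewer than 50% such words, and little Pol II and few placed reads cannot be told apart there. In the respiratory chain and ATP synthase, 67 of 68 genes without an L ending were covered, with ND-AGGG empty, and 4 of 25 genes with an L ending were, namely COX4L, COX5BL, COX6AL2 and COX7CL, of which COX6AL2 had no region with a −log10 q of at least 2 in either replicate. The division by the ending of the symbol was made after the values were seen. The fully covered ATPsynC, the ring subunit of ATP synthase, spans 3.49 kb.

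Other machinery of translation and acidification was covered in part. Of 54 translation initiation and elongation factors 42 were covered, with eEF2, the ribosomal translocase, at 100% over 4.25 kb and eIF4G1 on chromosome 4 lowest at 10.6% and 6.18%. Among the 11 empty members were eEF1alpha2, a second elongation factor 1 gene, and 5 relatives of the cap-binding protein eIF4E (eIF4E3, eIF4E4, eIF4E5, eIF4E6 and eIF4E7). The empty eIF4B has 0.46% unique 50-base words, so little Pol II and few placed reads cannot be told apart there. Of 33 aminoacyl-tRNA synthetases 28 were covered, and the 4 empty ones, GluRS-m, IleRS-m, MetRS-m and ValRS-m, are mitochondrial, as are 10 of the covered ones. The vacuolar ATPase list had 18 of 33 members covered (54.5%), close to the 51.4% of all genes. Each of its 13 empty members shares the stem of its symbol with a covered member, such as Vha68-1 with Vha68-2. Vha13, Vha26, Vha44, Vha55 and VhaSFD were covered. This reading by symbol was made after the values were seen. Its covered members ran from Vha16-1 at 100% over 7.85 kb to Vha68-3 at 13.4% and 16.2%.

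The machinery of transcription and of the nucleus was covered almost without exception. All 13 Pol II subunits, all 14 TFIID genes, all 25 pausing and elongation factors, all 25 splicing factors matched, all 25 nucleoporins and all 12 insulator proteins matched were covered in both replicates, as were 28 of 29 Mediator genes. Integrator, which cleaves nascent RNA near paused polymerase, had 9 of 11. The Pol II subunits ran from Polr2I with 55.4% and 44.6% to Polr2M with 100%, and the TFIID genes from Taf3 with 30.8% and 26.8% to Tbp, the TATA-binding protein, with 100%. Mediator, which joins activators to Pol II, ran from MED26 with 14.3% and 12.8% to 9 members covered over at least 95% of the body. The extent differed widely between the elongation factors as well. Among pausing and elongation factors, dre4, a subunit of the histone chaperone FACT, was covered over 100% of 4.74 kb in both replicates. Cdk9, a kinase of S2, and Hexim, which holds Cdk9 inactive, were covered over 100% as well. Spt5, which travels with Pol II, was covered over 69.3% and 67.7%. Of the subunits of NELF, the pausing complex, NELF-B had 88.0% and 100%, TH1 80.9% and 79.7%, Nelf-A 42.5% and 82.8% and Nelf-E 45.1% and 44.9%. lilli, the 68.5 kb gene of a super elongation complex scaffold, was lowest with 0.905% and 0.831%, of which 390 and 379 bp ran from its start.

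Among insulator proteins, which bind domain borders and enhancer blockers, pita was covered over 100% of 5.75 kb, Cp190 over 88.4% and 88.3% and su(Hw) over 20.3% and 13.6%. Of their 8 genes of 2 kb or more 2 had a covered end, close to the 24.2% of all genes of that length, and all 8 had a covered start, against 54.5%. The DRE stood in 7 of the 12 promoters (58.3%), against 9.36% of all promoters. The Polycomb group, which silences developmental genes by histone H3 lysine methylation and chromatin compaction, was covered in 18 of 19 matched members. esc, Sce and Caf1-55 were covered over 100% of the body, while Pc had 3.16% and 2.99%, and pho, on chromosome 4, was empty.

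Of the small RNA pathway, 15 of 18 genes were covered (83.3%, against 51.4% of all genes). AGO2, the effector of RNA interference that the study depleted in other samples, had 55.7% and 33.2% of its 6.93 kb covered with both start and end covered. AGO1, the effector of microRNAs, had 41.0% and 39.6% of 14.7 kb, Dcr-2, which makes the small interfering RNAs, 56.6% and 48.98%, and Dcr-1, which makes microRNAs, 4.40% and 10.6%. The piRNA genes piwi and krimp were empty and aub had 6.23% in replicate 1 and 0% in replicate 2, while spn-E, also of that pathway, had 48.7% and 47.5% and zuc 66.8% and 69.6%. Lam, the lamin gene depleted in the other knockdown of the study, had 85.5% and 83.1% of 4.16 kb covered.

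Genes of the cell cycle and of growth were covered in every listed member. All 25 cell cycle genes had a covered start in both replicates, and 9 were covered over at least 95% of the body in both. stg, the Cdc25 phosphatase that triggers mitosis, was covered over 100% of 3.98 kb, as were Cdk1, PCNA, Mcm2 and Mcm6 over their shorter bodies. CycE, the S-phase cyclin with a 20.6 kb gene, had 15.6% and 16.5%, and fzr, an activator of the anaphase-promoting complex, was lowest with 6.41% and 3.14%. All 16 genes of Myc and nucleolar growth were covered. Myc itself had 72.1% and 49.8%, although none of these bases belongs to Myc alone, and the box C/D proteins Nop56 and Fib had 100%. Of 14 glycolysis genes 11 were covered in both replicates (78.6%, against 51.4% of all genes), with Pgi, Gapdh1, Gapdh2 and Pglym78 at 100%. Hex-C and Pfk had a region in replicate 1 alone, and Pglym87, a second phosphoglycerate mutase gene, was empty.

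Heat shock genes were covered in mock cells, many of them from end to end. Of 23 heat shock and chaperone genes 20 were covered (87.0%, against 51.4% of all genes). Over at least 95% of the body 12 were covered (52.2%, against 12.1%). Hsp83, the Hsp90 of the fly, was covered over 100% of 4.09 kb, and Hsp22, Hsp23, Hsp26 and Hsp68, which are induced by heat, were also at 100% in both replicates. The 6 near-identical Hsp70 copies, in which less than 50% of 50-base words are unique, ranged from 0% to 14.0%, and little Pol II and few placed reads cannot be told apart there. The apoptosis list had 10 of 14 covered (71.4%, against 51.4% of all genes and 61.3% of genes of 2 to 5 kb). Diap1, the main inhibitor of caspases, had 92.7% and 79.8% of 12.6 kb, and the effector caspases Drice and Dcp-1 had 100%, while the inducers of death rpr, grim and skl were empty and hid had 60 and 54 covered bases at its start in 17.9 kb. Dcp-1 lies wholly inside the gene pita, also covered over 100%, so its coverage cannot be assigned to it.

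**Figure D4:**
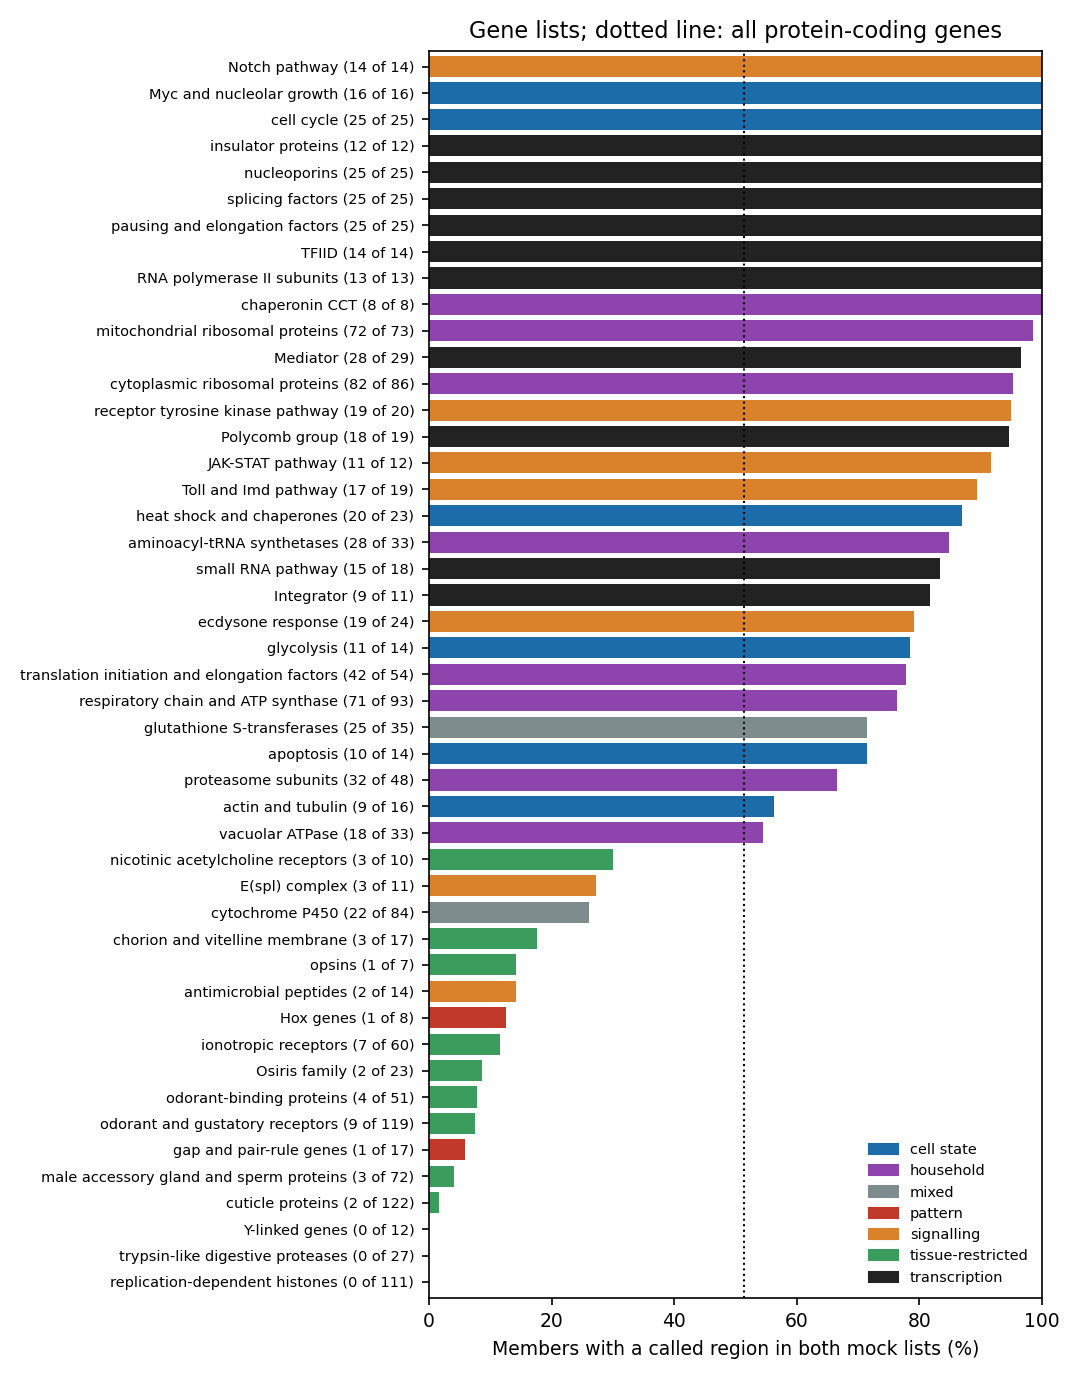
Share of members with a region in both mock replicates (horizontal axis, percent, bars starting at 0) for 47 gene lists, with counts beside each name, bar colours for the kind of list and a dotted line at the 51.4% of all protein-coding genes. Lists of transcription, growth and household genes end between 54.5% and 100%, apart from the histones at 0%, and lists of tissue-restricted genes end at 30.0% or below.

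Markers of hemocytes were covered more often than those of other cell types. Of 19 hemocyte markers 14 were covered in both replicates (73.7%), against 3 of 10 neuron, 1 of 5 glia, 2 of 10 muscle, 0 of 10 fat body, 2 of 8 germline, 3 of 5 follicle cell, 3 of 8 epidermis and trachea and 2 of 7 gut markers, where 1 of the covered gut markers is srp, which is on the hemocyte list too. The share was 51.4% over all genes and 67.4% over all genes of 5 to 10 kb, where the median hemocyte marker length of 7671 bp lies. Between marker types the difference was larger in extent than in count. Median lengths were 27248.5 bp for neuron, 11904 bp for muscle and 9847 bp for epidermis and trachea markers. They were 3411 bp for glia and 3691 bp for follicle cell markers, and the part of gene length in the difference was not tested. Hemocyte markers with more than 30% of the body covered in both replicates were SPARC, LanA, LanB1, Hml, srp, Pvr, Nplp2 and ush, whereas the covered neuron, glia, muscle, epidermis and follicle markers had between 0.232% and 32.3%. Above this range was bgcn, a germline differentiation factor, at 54.6% and 56.2%. The other covered germline marker, the RNA helicase gene vas, had 24.0% and 23.2%, none of it on bases of its own. With at least 10% of the body required in both replicates 8 hemocyte markers still counted as covered, beside 1 neuron marker, 2 germline markers and srp on the gut list, and none of the glia, muscle, follicle cell and epidermis markers did.

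The covered hemocyte genes include the regulators of blood cell fate and the secreted matrix. srp, the GATA factor required for hemocytes (chr3R:15986152-16004085), had 65.4% and 63.5% of its 17.9 kb covered up to its end, with no base of its first 500 bp. ush, the partner of GATA factors, had 32.2% and 33.2% of 64.3 kb, with both its start and its end covered. Hml, the clotting factor hemolectin (chr3L:13846054-13860001), had 73.7% and 75.3% of 13.9 kb, and Pvr, the PDGF and VEGF receptor of hemocytes, 62.9% and 61.5% of 18.9 kb. SPARC, a collagen-binding matrix protein, was covered over 100% of 2.76 kb in both replicates, and the laminin chains LanA and LanB1 over 94.3% and 92.0% and over 85.7% and 77.2%.

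The other hemocyte genes were covered over a small part of the body or not at all. Col4a1, a collagen IV chain, had 223 and 210 covered bases, all in its first 500 bp, Ppn, the matrix protein papilin, 200 and 186, and crq, a scavenger receptor for dying cells, 170 and 180. vkg, the other collagen IV chain, had 5.17% and 4.81% of 16.05 kb with its end covered and its first 500 bp not. Pxn, the matrix enzyme peroxidasin, had 8.70% and 9.004% of 28.6 kb with both its start and its end covered, and a mean of 3.12% when a −log10 q of at least 2 was required. The phagocytosis receptors NimC1, eater and Sr-CI, the surface protein gene He and the transcription factor gcm had no region in either replicate.

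**Figure D5:**
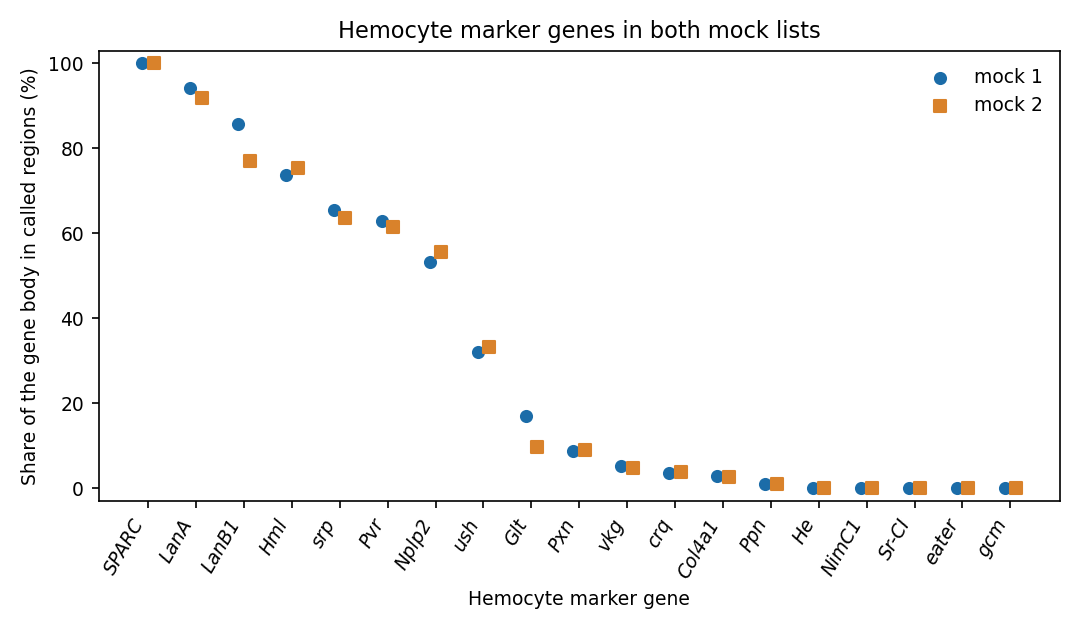
Share of the gene body inside called regions (vertical axis, percent) for the 19 hemocyte markers in mock replicate 1 (circles) and mock replicate 2 (squares), ordered by their mean. SPARC stands at 100% in both, 8 genes stand above 30%, and He, NimC1, Sr-CI, eater and gcm stand at 0%.

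Signalling pathways were covered in most components, with wide differences in extent along each pathway. Of 12 JAK-STAT genes 11 were covered (91.7%, against 51.4% of all genes). Their median length was 6985 bp, and 67.4% of all genes of 5 to 10 kb were covered. The ligand gene upd1 was empty, and the ligand genes upd2 and upd3 had 1.22% and 1.52% and 2.73% and 3.15%. The receptor dome had 13.2% and 16.8%, the kinase hop 82.1% and 82.9%, the transcription factor Stat92E 41.9% and 40.3% and the target and inhibitor Socs36E 69.1% and 64.7%. In the receptor tyrosine kinase list, 19 of 20 genes were covered and Egfr, with a 37.6 kb gene, was empty. With at least 10% of the body required 11 of the 20 counted as covered. Of the ligands of Pvr, Pvf1 had 0.988% and 1.16%, Pvf3 0.316% and 0.361% and Pvf2 30.9% and 19.4%. The EGF ligand spi had 64.8% and 66.5%, Ras85D 100% and 100%, and pnt and sty, at the output of the pathway, had the long covered stretches given above.

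Of the Toll and Imd pathways of immunity 17 of 19 genes were covered (89.5%, against 51.4% of all genes). Of 14 antimicrobial peptide genes that these pathways control 2 were covered (14.3%). The median length was 3804 bp for the pathway genes, and 61.3% of all genes of 2 to 5 kb were covered. It was 489.5 bp for the peptide genes, and 24.7% of all genes under 1 kb were covered. Among the pathway genes, imd had 100% and 75.03%, Rel, the NF-kappaB of the Imd pathway, 66.4% and 80.3%, and the receptor Tl 0.517% and 0.401% of 43.4 kb, while the receptor gene PGRP-LC was empty. The covered peptide genes were Drs, drosomycin, with 84.2% and 69.8% of 0.387 kb, and AttB, attacin B, with 35.9% and 37.2%. All 14 matched Notch pathway genes had a covered start in both replicates, against 54.5% of all genes of 2 kb or more, and 2 of them, mib1 and Psn, had a covered end, against 24.2%. N itself, the receptor, had 20.6% and 24.7% of 37.4 kb. Of the 11 genes of the E(spl) complex, the direct Notch targets, 3 were covered, E(spl)m2-BFM, E(spl)m3-HLH and E(spl)mbeta-HLH, each over 15.5% to 23.5% of the body and at the start.

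Genes of the ecdysone response are long and were covered over a small part. Of its 24 genes 19 were covered (79.2%, against 51.4% of all genes). Of the 21 genes of 2 kb or more 13 had a covered start and 3 a covered end in both replicates. Over all genes of that length or more it was 54.5% and 24.2%. With at least 10% of the body required 6 of the 24 counted as covered. The median share of the body over all 24 was 2.46% and 2.99%, and the median gene length 21.2 kb. Over all covered genes of 20 to 50 kb the median share was 3.45% and 3.40%, and 11.3% of those with a covered start had a covered end. EcR, the ecdysone receptor, had 3.23% and 3.32% of 81.2 kb, Eip74EF 4.57% and 4.15% and Hr4 0.138% and 0.150% of 66.0 kb. Kr-h1, a factor of the juvenile hormone response, had 45.5% and 30.9%, and usp, the partner of EcR in a gene of 3.51 kb, 84.1% and 84.1%, on bases that it shares with other genes. ImpE1, ImpE2, ImpE3, ImpL1 and Hr51 were empty.

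Genes that pattern the embryo and genes of differentiated tissues were mostly empty. Of 8 Hox genes 1 was covered, Dfd, with 5.51% and 5.25%, a mean of 3.14% at a −log10 q of at least 2, and no start covered in both replicates. Of 17 gap and pair-rule genes 1 was covered, hry (hairy), and that one over 100% of 3.50 kb in both replicates. GAGAG stood in 16 of the 17 gap and pair-rule promoters (94.1%), against 29.7% of all promoters. Odorant and gustatory receptors were covered in 9 of 119 genes, ionotropic receptors in 7 of 60, odorant-binding proteins in 4 of 51, Osiris genes in 2 of 23, opsins in 1 of 7 and nicotinic acetylcholine receptors in 3 of 10. The exceptions were covered to different extents. The opsin gene Rh4 had 3.59% and 4.24% of 9.99 kb, the odorant-binding protein gene Obp44a 82.6% and 80.0%, Osi21 45.9% and 63.0% and the acetylcholine receptor subunit gene nAChRbeta3 100% in both replicates. Each of these genes overlaps another gene, and a region on shared bases cannot be assigned to either. Other exceptions overlap no other gene. Among them, the gustatory receptor gene Gr66a had 100% in both replicates, Obp18a 36.5% and 43.9% and Obp46a 49.5% and 39.3%. Cuticle proteins had 2 of 122 (Cpr51A and Cpr73D, both of which overlap other genes), accessory gland and sperm proteins 3 of 72 and digestive proteases 0 of 27. Mst57Dc of the accessory gland list, which overlaps no other gene, had 100% in both replicates. Fewer than 50% of 50-base words are unique in 8 cuticle, 4 accessory gland and sperm and 4 protease genes. Where these are empty, little Pol II and few placed reads cannot be told apart. The chorion and vitelline membrane list had 3 of 17, of which Cp110 and Cp190 are a centriole and an insulator protein that share the symbol pattern and no eggshell role, leaving Vm34Ca with 85.1% and 87.8% of 0.491 kb.

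Detoxification genes divided by family. Of 35 glutathione S-transferases 25 were covered (71.4%), GstE12 over 100% of 1.46 kb, and of 84 cytochrome P450 genes 22 (26.2%). In the actin and tubulin list 9 of 16 were covered (56.25%), close to the 51.4% of all genes, and members of 1 family differed. Act5C and Act42A, the cytoplasmic actins, had 94.6% and 94.4% and 100% and 100%, alphaTub84B and betaTub56D 100%, and the muscle actins Act57B, Act79B, Act87E and Act88F and the testis tubulin betaTub85D 0%. betaTub60D, a tubulin regulated in development, had 313 and 285 covered bases at its start. The other covered members were alphaTub84D, alphaTub67C, betaTub97EF and gammaTub23C, and the other empty ones alphaTub85E and gammaTub37C.

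The replication-dependent histone genes were empty, and here sequence is the limit. None of the 111 members had a region in either replicate, and at most 21.6% of the 50-base words of any member occur once in the genome. Reads that map to several places had been removed, so an absence of Pol II and an absence of reads that could be placed cannot be told apart here. Over all genes, 390 had fewer than 50% unique words, and 45 of them (11.5%) were covered, against 52.5% of the other 13578. They made up 340 of the 6428 empty genes (5.29%), so most empty genes were of unique sequence. The Y chromosome, with 19.0% unique words, had 0 of 23 genes covered and 1 region in each replicate, of 232 and 237 bp at the same place and in no gene. Of 12 listed Y-linked genes, all of them empty, 5 had fewer than 50% unique words, and the cause of their emptiness was not tested.

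Chromosome arms differed little in how many genes were covered, and chromosome 4 differed in how much. The share of covered genes was 46.9% on 2L, 52.6% on 2R, 50.7% on 3L, 51.4% on 3R, 56.6% on X and 50.0% of 80 genes on 4. On chromosome 4, which is largely heterochromatic, covered genes had a median share of the body of 15.4% and 11.6%, against 47.2% to 56.9% on the other arms with covered genes, and 6.90% of its 29 genes of 2 kb or more with a covered start also had a covered end, against 35.8% to 40.5% elsewhere. The difference between arms in gene length was not part of this comparison.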

How the data were processed

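ChIP-seq of S2-phosphorylated Pol II was done in mock-treated Kc167 cells with sheared input DNA as the control. Versions are those of the submitters' processing notes, and the methods of the study name later releases of cutadapt and Picard. The authors trimmed 50 bp single-end reads with cutadapt 1.10, aligned them to dm6 with Bowtie2, removed multimapping reads and duplicates (Picard 2.11.0), and called broad regions over input with MACS2 2.1.1.20160309 in each replicate separately. The deposited lists give each region's position with a score, a fold enrichment signal and −log10 p and q values; positions entered the counts, and the deposited −log10 q entered 1 alternative.

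Regions were set against 13968 protein-coding genes of Ensembl release 115 (BDGP6.54, the dm6 assembly) from gene start to gene end, with Python 3.11.15 and numpy 2.4.6. A minimum of 1 base in both replicates made a gene covered. Coverage, windows and reach were tested on simulated data (400 of 400 genes recovered). Promoters were read from the RefSeq genome of the same build, and 50-base words were counted over it. The lists hold no read counts, so depth and counting error are unknown. With 1 group no test was made.

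The members and gene lists were chosen with earlier results of these data known. Named genes were the hemocyte markers and example genes of the study, exceptions of each list (5 or fewer), its highest and lowest covered members, the 10 longest reaches, the 5 longest full and empty genes, the 10 largest differences and the ends of the 5 longest empty runs; other genes named were chosen after their values were seen. Alternatives were a minimum coverage, a stricter q, either replicate, each replicate alone, genes overlapping no other, regions of at least 500 bp, merged gaps and other windows. The 4 knockdown lists entered only the total of regions. The 6 inputs, and SmG, Z4, calypso, Dl, argos, nos and Mex1, were not analysed here.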

Additional observations from a re-analysis of the deposited data

How the results depend on the processing

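No paired analysis was possible because the mock libraries form 1 group. With at least 10% of the body or 250 bases of a window required, 13 genes had covered sequence past the end in place of 20, the median reach over all genes of 2 kb or more with a covered start rose from 0.801 to 1.045 kb and the share of covered starts with a DRE from 16.9% to 18.5%. With regions of at least 500 bp alone these last values were 1.079 kb and 18.3%, and with a region in either replicate 1.03 kb and 16.5%. With a −log10 q of at least 2 the DRE share was 16.9%, as before to that precision, while 13 of 190 named genes moved, among them Pxn from 8.85% to 3.12%, Dfd from 5.38% to 3.14%, mRpS9 from 4.19% to 2.502%, Obp18a from 40.2% to 18.3% and COX6AL2 from 6.77% to 0% (means of both replicates). Counted in 1 replicate at a time, the reach lay between 0.884 and 0.933 kb, the DRE share at 16.7% in both, and genes covered over at least 95% of the body between 532 and 617. Among genes overlapping no other gene 3181 were covered, 1893 had a covered start, 764 a covered end and 223 at least 95% of the body, with a DRE share of 18.2%; fewer genes entered by construction. The requirement for 10% of the body lowered the number of covered genes from 7174 to 5686 and regions of at least 500 bp to 6138. Under the latter 41 of 190 named genes and 11 of 57 lists moved, and under the former 16 lists. Merging gaps of up to 500 bp could not change a value, since the smallest gap was 589 bp. Depth was unknown, so how many empty genes lie below detection was not tested.

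Counts of covered list members moved by over 1.5 times as follows. With at least 10% of the body required, 11 receptor tyrosine kinase, 6 ecdysone response, 0 Hox, 4 ionotropic receptor, 1 cuticle, 1 Osiris, 0 opsin and 1 acetylcholine receptor genes were covered, 3 of the study's example genes, 8 of 19 hemocyte markers, 1 neuron, 1 gut and 0 glia, muscle, follicle and epidermis markers. With regions of at least 500 bp these were 12 ecdysone response, 0 Hox and opsin, 1 cuticle, 1 Osiris, 1 antimicrobial peptide and 13 cytochrome P450 genes, 1 muscle, 1 epidermis, 1 gut and 0 glia markers. The stricter q left 4 ionotropic receptors. In either replicate 2 Hox, 3 gap and pair-rule, 1 digestive protease and 6 accessory gland and sperm genes and 4 germline markers were covered, and in 1 replicate at a time 1 to 2 Hox, 2 gap and pair-rule, 0 to 1 digestive protease, 4 to 5 accessory gland and sperm genes and up to 4 germline markers. Among genes overlapping no other gene the covered members were 37 cytoplasmic and 30 mitochondrial ribosomal proteins, 31 respiratory chain, 16 proteasome, 18 translation factor, 15 tRNA synthetase, 5 CCT, 6 Pol II, 13 Mediator, 6 TFIID, 11 pausing, 12 splicing, 14 nucleoporin, 3 insulator, 11 Polycomb, 5 small RNA, 15 cell cycle, 7 glycolysis, 9 Myc and nucleolar, 13 heat shock, 4 apoptosis, 7 JAK-STAT, 8 Toll and Imd, 6 Notch, 9 receptor tyrosine kinase and 5 ecdysone genes. There were 4 odorant and gustatory and 3 ionotropic receptors, 7 cytochrome P450, 1 Osiris, 1 chorion, 1 accessory gland and 0 cuticle, opsin and acetylcholine receptor genes, 3 example genes, 9 hemocyte, 1 neuron, 1 follicle, 1 gut and 0 glia and germline markers.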

Other observations

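Covered and empty genes lay in runs along the chromosomes. Of 7171 covered genes with a next protein-coding gene on the arm, that next gene was covered in 73.8%, against 51.4% of all genes; neighbours often share a region or a promoter, and the part of this in the value was not tested. The longest run of covered genes held 33 genes over 115.015 kb of X, from RpS10b to meso18E, and includes the cytokine receptor gene dome. The longest runs of empty genes were the histone cluster with 111 genes from His1:CG33801 to His3:CG33866 over 125 kb of 2L, where at most 21.6% of 50-base words of a gene are unique, then 45 genes over 109.9 kb of 3L from l(3)72Dr to CG33257, mostly known by CG number, and 37 genes over 321 kb of 3R from CG10280 to Osi18, which hold the Osiris cluster. Runs of 32 genes from CG32450 to CG11370 on 3L and of 28 genes from Adhr to CG3491 on 2L followed, and the latter includes Adh, the alcohol dehydrogenase.

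The longest empty genes were Pzl (709 kb), DIP-lambda (379 kb), bru3 (281 kb) and the Y-linked Ppr-Y (248 kb) and kl-3 (227 kb), the last of which codes for a sperm dynein. The widest single region was 24805 bp in mock replicate 1, over 7 genes of 3R from Mnat9 to CG1792 that include RpL6 and pasha, and the widest in mock replicate 2 was 18344 bp over 5 genes of 3L from Ppat-Dpck to Txl. Stretches over sty, over Cubn and over the 3′ part of cnc were among the 5 widest in both replicates, cnc being the gene of the antioxidant response factor with 54.2% and 52.1% of 41.1 kb covered.

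A few short genes were fully covered in 1 replicate and empty in the other. They were CG3448, CG10298, COX7AL, UQCR-14L, CG34242, CG46442 and CG34263 in replicate 1 and GstD2 and CG18731 in replicate 2, while CG3085 had 1.28% in replicate 1 and 87.7% in replicate 2.

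Promoter words also differed between lists of mostly empty genes. The TATA box placed 45 to 20 bp before the start stood in 61.5% of cuticle protein promoters, 66.7% of those of digestive proteases, 58.8% of those of the chorion and vitelline membrane list, 64.3% of those of antimicrobial peptides and 81.8% of those of the E(spl) complex, and in 0% of those of the Hox genes and nicotinic acetylcholine receptors. GAGAG stood in 87.5% of Hox promoters and 80.0% of the receptor promoters, against 29.7% of all. Among lists of mostly covered genes, the placed TATA box was absent from the promoters of the proteasome, tRNA synthetase, Mediator, splicing factor and insulator lists and stood in 47.8% of heat shock promoters.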
